A study of Mus musculus with 10 samples.

Results

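Interferon regulatory factors (IRFs) and signal transducers and activators of transcription (STATs) were followed in lung RNA from smoke-exposed and control mouse pups. The group held 9 genes (Irf1, Irf2, Irf3, Irf5, Irf7, Irf8, Irf9, Stat2 and Stat3) of the 18193 that the platform annotation pairs with a probe set of 1 symbol. All 18 probe sets annotated to 1 of these genes alone were taken, whatever their values. RNA came from whole lungs of C57BL/6J mice aged 2 weeks and was read on Affymetrix Mouse 430 2.0 arrays, with 1 mouse on each of the 10 arrays. The smoke group held 6 mice that stayed with their mother in cigarette smoke from the age of 1 day. They received 1 hour a day for 7 days and then 2 hours a day for 7 days, with particulate matter at 90 mg per cubic metre. The 4 control mice were of the same strain and age, and were housed in filtered air apart from the exposed animals. The labels name no transgene or deletion in either group. The labels give neither sex nor litter nor array batch, so a p-value here measures the spread between these arrays, and their number limits the precision. The tests treat pups as independent, which littermates would not be. Smoke cannot be told apart from housing, or from litter if litters differed between the groups.

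IRFs bind DNA through a shared N-terminal domain. IRF3 and IRF7 lie latent in the cytoplasm, are phosphorylated when a cell senses viral nucleic acid, and switch on type I interferon genes. Interferon then acts back on cells through its receptor and Janus kinases, which activate STATs. STAT2 and IRF9 join a further STAT in ISGF3, the complex that binds the interferon-stimulated response element (ISRE) of antiviral genes. STAT dimers bind another site, the gamma-activated sequence (GAS), as at the promoter of IRF1. Irf7, Irf9 and Stat2 are themselves textbook interferon-stimulated genes, while STAT3 mainly carries signals of the interleukin-6 and interleukin-10 families. In lung, alveolar macrophages, dendritic cells and epithelium are the best-known users of these factors.

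The promoters of the members that the results turn on are shown first, from RefSeq with the coordinates of build GRCm38.p6. Each window runs from 250 bases before the transcription start to 50 bases after it, and all 9 genes matched at least 1 of 12 windows. Irf7, Irf9, Irf2 and Stat2 are given because a tested probe set of each (1421911_at for Stat2) had every smoke array below every control array, and Irf1 for comparison with Irf2, which binds the same elements. Capitals mark matches on either strand to the ISRE letters, a pair of GAAA repeats with any 2 bases between them, or to the GAS letters TTCNNNGAA, and the sequences run 5′ to 3′ along the gene. Irf7 lies on the minus strand at chr7:141266375-141266674, Irf9 on the plus strand at chr14:55603735-55604034, Stat2 on the plus strand at chr10:128270248-128270547, Irf2 on the plus strand at chr8:46739495-46739794 and Irf1 on the plus strand at chr11:53769764-53770063.
Irf7: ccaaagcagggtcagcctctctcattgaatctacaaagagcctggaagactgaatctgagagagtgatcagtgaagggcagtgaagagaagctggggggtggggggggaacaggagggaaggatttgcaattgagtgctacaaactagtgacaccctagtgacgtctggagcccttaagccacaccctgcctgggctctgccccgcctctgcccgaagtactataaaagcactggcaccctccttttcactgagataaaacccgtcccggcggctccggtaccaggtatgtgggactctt
Irf9: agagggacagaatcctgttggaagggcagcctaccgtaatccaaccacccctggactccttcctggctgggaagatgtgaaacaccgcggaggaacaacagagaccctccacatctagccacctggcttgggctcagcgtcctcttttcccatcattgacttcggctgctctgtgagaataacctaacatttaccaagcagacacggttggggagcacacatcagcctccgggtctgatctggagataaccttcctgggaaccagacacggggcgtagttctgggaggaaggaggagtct
Stat2: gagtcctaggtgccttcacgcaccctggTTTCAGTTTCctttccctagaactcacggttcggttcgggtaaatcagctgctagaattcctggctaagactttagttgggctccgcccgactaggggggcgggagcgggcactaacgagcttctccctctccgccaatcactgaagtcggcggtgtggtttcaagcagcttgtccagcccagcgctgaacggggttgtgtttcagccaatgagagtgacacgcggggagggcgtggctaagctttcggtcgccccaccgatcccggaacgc
Irf2: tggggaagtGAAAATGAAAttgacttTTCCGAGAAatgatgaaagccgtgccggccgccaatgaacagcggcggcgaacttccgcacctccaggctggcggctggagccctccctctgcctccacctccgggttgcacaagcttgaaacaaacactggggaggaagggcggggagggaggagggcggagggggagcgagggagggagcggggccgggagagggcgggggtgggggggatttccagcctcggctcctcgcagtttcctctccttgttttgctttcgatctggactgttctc
Irf1: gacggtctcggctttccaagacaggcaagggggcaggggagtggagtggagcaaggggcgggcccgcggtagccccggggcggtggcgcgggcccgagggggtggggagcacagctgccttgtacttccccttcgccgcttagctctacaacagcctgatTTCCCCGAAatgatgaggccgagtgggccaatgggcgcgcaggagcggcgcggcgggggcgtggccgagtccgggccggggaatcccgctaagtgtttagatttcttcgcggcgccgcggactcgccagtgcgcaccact
The Stat2 window held the ISRE letters in reverse complement, as TTTCAGTTTC, 222 bases before the start. The Irf1 window held TTCCCCGAA 90 bases before the start. Neither motif was found in the Irf7 window or in either Irf9 window. The Irf2 window held GAAAATGAAA 241 bases and TTCCGAGAA 224 bases before the start. Of the members not printed, Irf8 held TTCTCGGAA 171 bases and TTCAGAGAA 153 bases before. The ISRE letters were thus present in 2 of the 12 member windows (16.7%) and the GAS letters in 3 of the 12 (25%), against 3.44% and 8.3% of all 32851 windows in the table. A match of letters is a description of the window, not a site of binding.

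Some arrays stood apart in RNA quality or Xist level. The 3′ to 5′ signal ratio of the actin control probe sets, a sign of RNA or labelling quality, was 31.6 and 29.4 on smoke arrays 1 and 2, against 2.18 to 10.3 on smoke arrays 3 to 6 and 3.96 to 10.4 on control arrays. Xist, the transcript of the inactive X chromosome, had deposited intensities of 2287 and 3636.2 on smoke arrays 5 and 6 and of 6936.6 and 7195.4 on control arrays 2 and 4, and of at most 19.7 on the other smoke arrays and 82.2 on the other control arrays. Results that rest on smoke arrays 1 and 2 are given with and without them. Correlations between arrays ran from 0.747 to 0.975, and no pair of arrays was identical. Markers fixed for lung epithelium were bright in both groups. The mean log2 intensity of 6 alveolar type 2 genes was 12.23 to 13.43 on smoke arrays and 12.78 to 13.29 on control arrays, and that of 6 alveolar type 1 genes was 12.18 to 12.65 on smoke arrays and 12.31 to 12.63 on control arrays.

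In lungs of smoke-exposed pups, Irf7 and Irf9 fell to 0.337 and 0.364 times the control signal, and no member was called higher. Levels are log2 intensities after quantile normalization, and changes are smoke minus control on that scale, with a standard error from limma and a p-value adjusted over 27022 tested probe sets. Of the 17 member probe sets above the filter on dim signals, 2 were lower at an adjusted p under 0.05, 0 were higher and 15 did not pass. The 2 lower sets were 11.8% of those tested, against 0.540% of all probe sets tested, while 0.0111% of all were higher. Changes were below 0 for 13 of the 17 and above 0 for 4. The groups did not overlap in 4 of the 17, those of Irf2, Irf7, Irf9 and Stat2, with smoke lower in each. Such a gap was present in 2.83% of all probe sets. The Stat2 set, 1421911_at, was bright enough for the filter through its control arrays. This count and those below that hold it are therefore descriptions only. At an unadjusted p under 0.05 there were 6 sets, each lower in smoke, a call that 5.50% of all probe sets met. The rule of the series' design text was applied as at least 1.5-fold in 16 of the 24 smoke and control array pairs. It also asked for a mean fold less its standard error over the pairs of at least 1.5, and an unadjusted limma p under 0.05. The 24 pairs share 10 arrays, so they are not independent. By this rule 4 member sets were lower and 0 higher, against 3.09% lower and 1.20% higher among all probe sets. The member sets were those of Irf7 and Irf9, Stat2 1421911_at and Stat3 1426587_a_at. In whole lung, fewer cells of a type and less RNA per cell cannot be told apart.

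**Figure D1:**
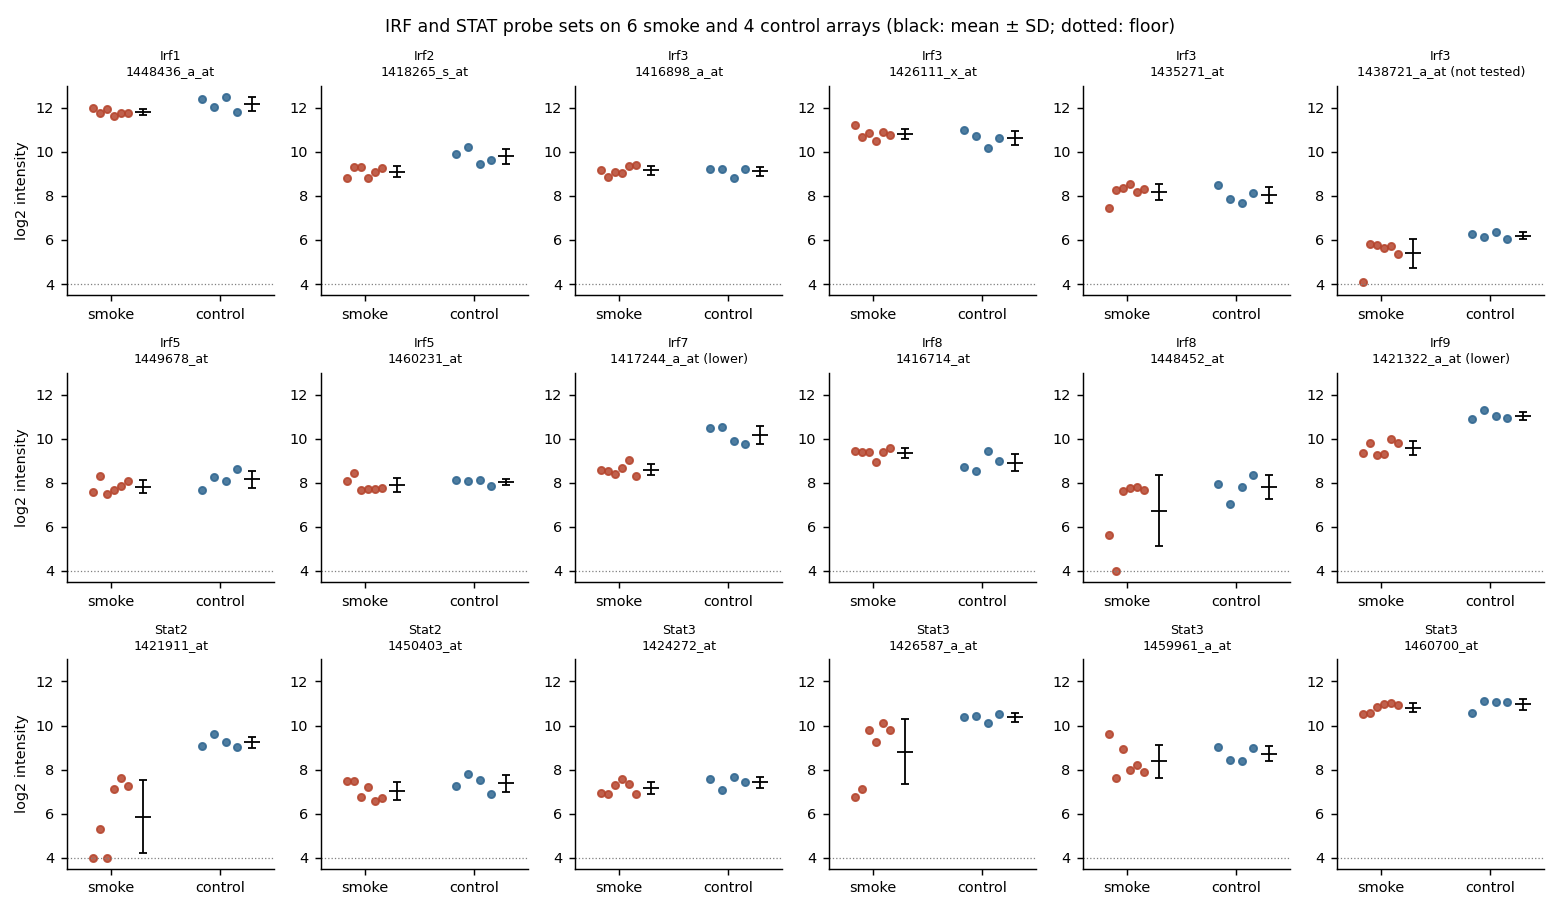
Log2 intensity (vertical axes) of all 18 IRF and STAT probe sets on 6 smoke arrays (left in each panel) and 4 control arrays (right), with 1 point per array, black bars for mean ± SD and a dotted line at the floor of 3.98. Smoke points lie below every control point for Irf2, Irf7, Irf9, 1 Stat2 set and the untested Irf3 set, and groups overlap in the other panels.

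The ISGF3 subunits were examined first. Irf9, the subunit that gives the complex its DNA specificity, had log2 levels of 9.25 at the lowest, 9.56 at the median and 9.98 at the highest on smoke arrays, against 10.89, 11.30, 11.04 and 10.92 on control arrays. Every smoke array was below every control array. Its mean was 9.58 ± 0.32 in smoke (SD, n = 6) and 11.04 ± 0.19 in control (SD, n = 4), a log2 change of -1.46 ± 0.20 (95% interval -1.89 to -1.02; limma, adjusted p = 0.00381). This is a control signal 2.74 times that of smoke. The intensities as deposited were 626.1 to 1078.4 on smoke arrays and 1953.7 to 2519.9 on control arrays, so the gap was also present before quantile normalization. Irf9 was lower under all 23 alternative settings, with changes of -1.61 to -1.36.

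Stat2, which brings the transactivation domain of ISGF3, was represented by a pair of probe sets whose changes differed in size. For 1421911_at, smoke arrays 1 to 6 had log2 levels of 3.98, 5.28, 3.98, 7.10, 7.61 and 7.25, against 9.08, 9.60, 9.26 and 9.02 on control arrays. All smoke arrays were below all control arrays, and smoke arrays 1 and 3 were at the floor. The mean was 5.87 ± 1.67 in smoke (SD, n = 6) and 9.24 ± 0.26 in control (SD, n = 4). The log2 change was -3.37 ± 0.73 (95% interval -4.97 to -1.78), and it did not pass (limma, adjusted p = 0.0849; exact two-sided permutation test over arrays, p = 0.0143). The size of the change depends on the floor, at -3.45 without one (adjusted p = 0.101) and -2.74 with the floor at the 25th percentile (adjusted p = 0.00770), so no fold is given. The set was bright enough for the filter through the control arrays, and was not among the upper 40% of probe sets. With no filter on dim probe sets, its limma adjusted p was 0.193. The SD among smoke arrays was larger than for any other member probe set. Leaving out smoke array 5 moved the set past the threshold (-3.72, adjusted p = 0.0365), as did leaving out smoke arrays 5 and 6 (-4.16, adjusted p = 0.00593). Leaving out smoke arrays 1 and 2, those of high actin ratio, gave -2.76 (adjusted p = 0.106), while smoke array 3, also at the floor, had an actin ratio of 9.26, within the control range. The other set, 1450403_at, had log2 levels of 6.59, 6.97 and 7.49 (lowest, median and highest) in smoke, against 7.25, 7.82, 7.54 and 6.90 in control. These overlapped, with a log2 change of -0.34 ± 0.29 (95% interval -0.97 to 0.29; adjusted p = 0.712).

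**Figure D2:**
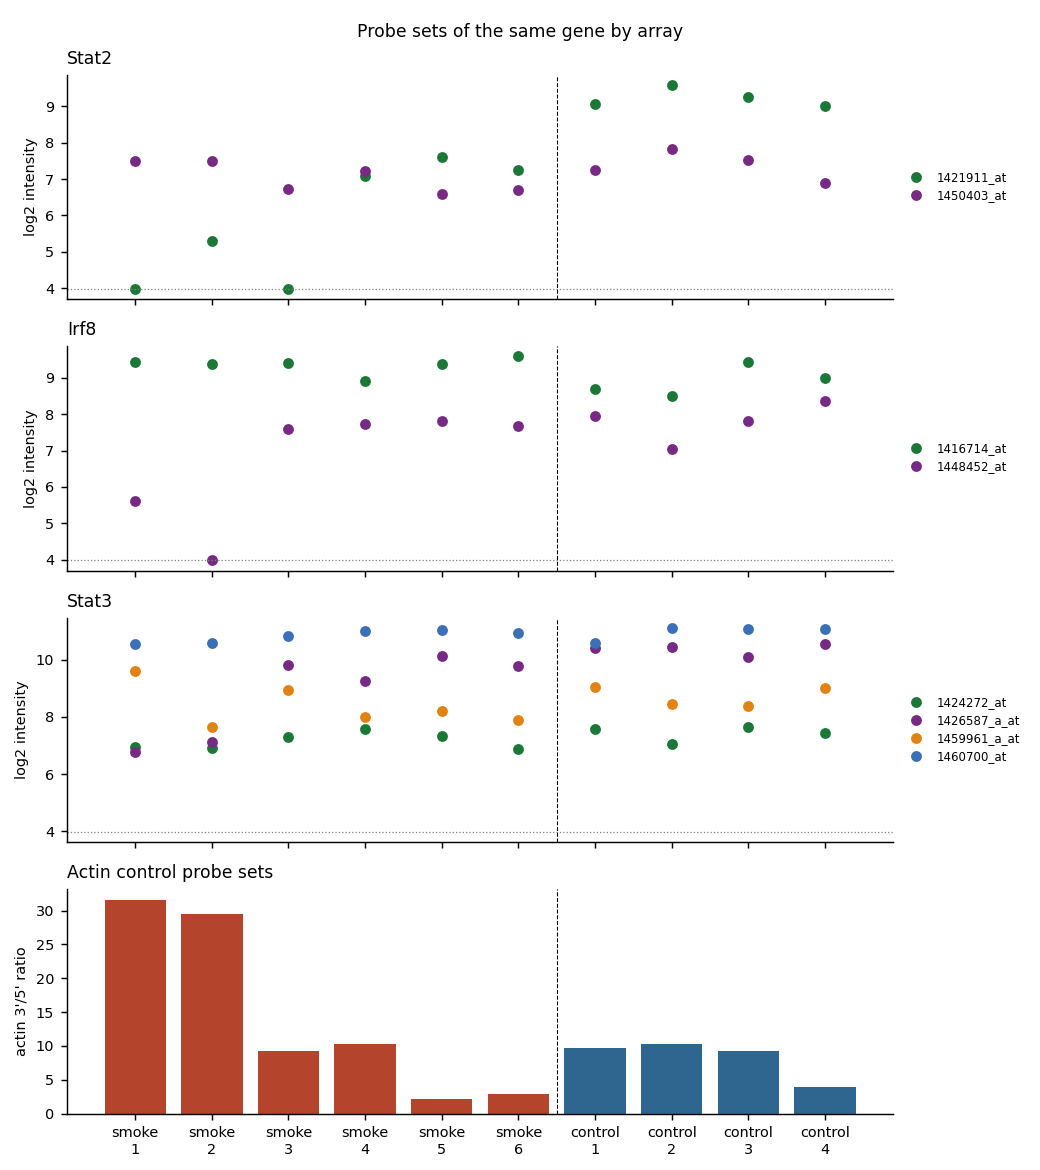
Log2 intensity of each probe set (colours) of Stat2, Irf8 and Stat3 on every array, smoke left of control, above the actin 3′ to 5′ signal ratio of each array (bars from 0); dotted lines mark the floor of 3.98. Irf8 1448452_at and Stat3 1426587_a_at are lowest on smoke arrays 1 and 2, whose actin ratios are 31.6 and 29.4. Stat3 1460700_at is also lowest there, by a small margin. Stat2 1421911_at is at the floor on smoke arrays 1 and 3.

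Of the factors activated by nucleic acid sensing, Irf7 was lower and Irf3 and Irf5 did not pass. Irf7, the interferon-inducible amplifier of type I interferon transcription, had log2 levels of 8.30, 8.55 and 9.05 (lowest, median and highest) on smoke arrays, against 10.49, 10.51, 9.88 and 9.75 on control arrays. The groups did not overlap. The mean was 8.59 ± 0.26 in smoke (SD, n = 6) and 10.16 ± 0.40 in control (SD, n = 4), a log2 change of -1.57 ± 0.22 (95% interval -2.06 to -1.08; limma, adjusted p = 0.00523). The control signal was 2.96 times that of smoke. As deposited, intensities were 303.0 to 547.8 on smoke arrays and 883.0 to 1464.5 on control arrays. Irf7 was lower under all 23 alternatives, with changes of -1.70 to -1.45.

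Irf3, the constitutive partner of Irf7 that acts at the onset of a viral response, had 3 tested probe sets, each with smoke and control arrays overlapping. The brightest, 1426111_x_at, had log2 levels of 10.49, 10.79 and 11.20 (lowest, median and highest) in smoke, against 10.98, 10.71, 10.19 and 10.61 in control. Its log2 change was 0.19 ± 0.19 (95% interval -0.24 to 0.61; adjusted p = 0.769), an interval that lies wholly above that of Irf7. The other sets had changes of 0.04 ± 0.18 (1416898_a_at, adjusted p = 0.952) and 0.15 ± 0.25 (1435271_at, adjusted p = 0.868). A further set, 1438721_a_at, lay under the filter and was not in the fit. It had log2 levels of 4.11, 5.69 and 5.81 (lowest, median and highest) in smoke, against 6.27, 6.11, 6.38 and 6.02 in control. These did not overlap (difference -0.79, exact two-sided permutation p = 0.0238), in the direction opposite to the other Irf3 sets, of which 1416898_a_at changed sign in 6 of 23 alternatives. Smoke array 1 had the lowest value, and the other smoke arrays, from 5.37 up, were also below every control array. With no filter its adjusted p was 0.540.

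Irf5, which acts below Toll-like receptors in myeloid cells, had overlapping groups in both of its probe sets. For 1449678_at the log2 levels were 7.49, 7.74 and 8.31 (lowest, median and highest) in smoke, against 7.69, 8.24, 8.08 and 8.60 in control, a change of -0.33 ± 0.24 (95% interval -0.86 to 0.20; adjusted p = 0.667). For 1460231_at they were 7.68, 7.73 and 8.46 in smoke, against 8.13, 8.07, 8.13 and 7.84 in control, a change of -0.14 ± 0.21 (95% interval -0.61 to 0.33; adjusted p = 0.849).

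Irf1 and Irf2 bind the same response elements, IRF1 as an activator and IRF2 mainly as its antagonist. Neither passed the test. Irf2 had log2 levels of 8.81, 9.17 and 9.33 (lowest, median and highest) in smoke, against 9.91, 10.23, 9.45 and 9.62 in control. All smoke arrays were below all control arrays, though the nearest values, 9.33 in smoke and 9.45 in control, were close. The mean was 9.11 ± 0.24 in smoke (SD, n = 6) and 9.80 ± 0.34 in control (SD, n = 4). The log2 change was -0.70 ± 0.21 (95% interval -1.15 to -0.24; limma, adjusted p = 0.272), and an exact two-sided permutation test on this set alone gave p = 0.00476, the smallest that 210 splits allow. Its adjusted p was at least 0.101 under every alternative. Irf1 had log2 levels of 11.63, 11.76 and 11.99 in smoke, against 12.40, 12.03, 12.47 and 11.79 in control. Of the 6 smoke arrays, 4 were below every control array. The log2 change was -0.37 ± 0.16 (95% interval -0.72 to -0.02; adjusted p = 0.474).

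Irf8, a lineage factor of monocytes, dendritic cells and B cells, had a pair of probe sets with changes of opposite sign. For 1416714_at the log2 levels were 8.93, 9.40 and 9.60 (lowest, median and highest) in smoke, against 8.71, 8.51, 9.43 and 9.01 in control, a change of 0.44 ± 0.22 (95% interval -0.03 to 0.91; adjusted p = 0.522). Only 2 of the 6 smoke arrays were above every control array. For 1448452_at, smoke arrays 1 and 2 had 5.62 and the floor value of 3.98, and smoke arrays 3 to 6 had 7.61, 7.74, 7.82 and 7.67. Control arrays had 7.94, 7.04, 7.82 and 8.36. The change was -1.05 ± 0.72 (95% interval -2.62 to 0.51; adjusted p = 0.639), and -0.08 (adjusted p = 0.950) without smoke arrays 1 and 2.

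Stat3, the main target of interleukin-6 type cytokines, did not pass in any of its 4 probe sets, all of which had changes below 0. The brightest, 1460700_at, had log2 levels of 10.55, 10.89 and 11.02 (lowest, median and highest) in smoke, against 10.58, 11.11, 11.07 and 11.07 in control, a change of -0.14 ± 0.17 (95% interval -0.52 to 0.23; adjusted p = 0.800). On that set smoke arrays 1 and 2 were lowest, at 10.55 and 10.57, with control array 1 next at 10.58. Without these smoke arrays its change was -0.014 (limma, adjusted p = 0.988). The next brightest, 1426587_a_at, had the largest change of the gene. Its log2 levels on smoke arrays 1 to 6 were 6.76, 7.11, 9.79, 9.25, 10.13 and 9.78, against 10.40, 10.43, 10.10 and 10.53 on control arrays. Smoke arrays 1 and 2 were below all other arrays. The change was -1.56 ± 0.64 (95% interval -2.96 to -0.17; adjusted p = 0.448) and was -0.63 (adjusted p = 0.269) without these arrays. The remaining sets had changes of -0.27 ± 0.24 (1424272_at, adjusted p = 0.725) and -0.34 ± 0.37 (1459961_a_at, adjusted p = 0.778), with overlapping groups.

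**Figure D3:**
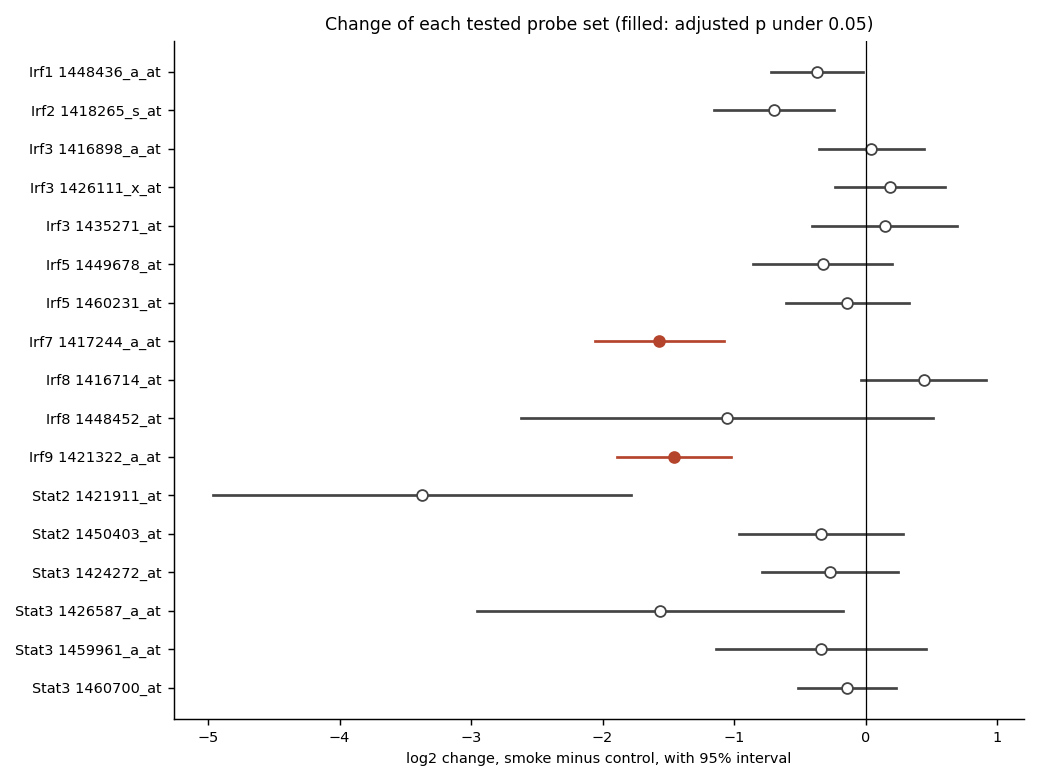
Log2 change, smoke minus control (horizontal axis), with its 95% interval, for the 17 tested IRF and STAT probe sets; filled red points passed the adjusted threshold of 0.05. Irf7 at -1.57 and Irf9 at -1.46 are the 2 that passed, and Stat2 1421911_at lies furthest left at -3.37 with a wide interval.

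The genes whose levels ran closest to the called members were found by the root mean square difference in log2 level over the 10 arrays, after each gene's own mean was removed. Nearest to Irf7 were Trim34a at 0.203, Trim12a at 0.283 and Daxx at 0.293, with log2 changes of -1.58 ± 0.14, -1.62 ± 0.21 and -1.08 ± 0.19. Nearest to Irf9 were Samd9l at 0.197, Sp100 at 0.203 and Tap1, a peptide transporter of antigen presentation, at 0.218. Their log2 changes were -1.49 ± 0.17, -1.53 ± 0.21 and -1.65 ± 0.23. These 6 genes were themselves lower in smoke (limma, adjusted p from 0.000105 to 0.0261), and the likeness is a description over arrays of which smoke and control make up the main contrast.

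**Figure D4:**
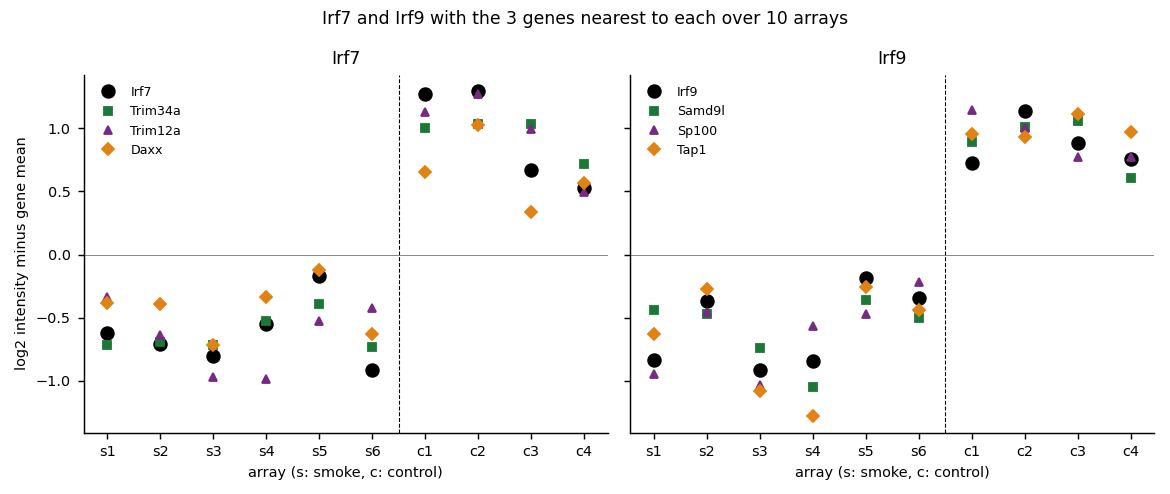
Log2 intensity minus each gene's mean over 10 arrays (vertical axis) on smoke arrays (s1 to s6, left) and control arrays (c1 to c4, right), for Irf7 and Irf9 (black) and the 3 genes nearest to each. All are below 0 on every smoke array but above 0 on control arrays, and the nearest genes differ from Irf7 by 0.203 to 0.293 and from Irf9 by 0.197 to 0.218.

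The pathways around the factors were then counted by role, with each gene represented by its brightest tested probe set and the calls taken over 13382 genes, of which 0.702% were lower and 0.0224% higher, with a median log2 change of 0.06. The lists share some genes, such as Usp18, Ddx58 and Nlrc5. Among the other IRF and STAT genes, 0 of 3 tested passed, with a median change of -0.19. Stat6 had a change of -0.25 ± 0.27, Stat5b of -0.19 ± 0.17 and Stat5a of 0.06 ± 0.30, while Irf4 and Stat4 were below the filter.

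Upstream, no ligand, receptor or receptor kinase passed in either direction. Of 9 matched ligand genes, 5 lay below the filter, Ifng and Il6 among them, and 0 of the 4 tested passed (median change 0.26). Ifna2, a type I interferon, had a change of 0.74 ± 0.35 (adjusted p = 0.514), Ifnb1 of 0.49 ± 0.37 (adjusted p = 0.678) and Osm, oncostatin M, of -0.13 ± 0.26. Of 11 receptor and Janus kinase genes, 0 passed, and changes ran from -0.29 to 0.17 with a median of -0.05. Il6st, the shared gp130 receptor chain, had -0.21 ± 0.17 (adjusted p = 0.712), Il10rb had -0.29 ± 0.29 and Jak1 had -0.19 ± 0.26. Dimmer probe sets of Jak1, Ifnar1 and Il6st, picked here after their values were seen, had changes of -2.0, -1.46 and -1.38, and of -0.99, -0.24 and -0.55 without smoke arrays 1 and 2. None of these passed, either with all arrays or without smoke arrays 1 and 2.

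Among sensors and kinases upstream of Irf3 and Irf7, 3 of 11 were lower and 0 higher, with a median change of -0.14. The 3 were receptors of double-stranded or viral RNA, all interferon-inducible. Ifih1, encoding the cytoplasmic sensor MDA5, changed by -2.13 ± 0.21 (limma, adjusted p = 0.000295), Tlr3 by -1.29 ± 0.22 (adjusted p = 0.0169) and Ddx58, encoding RIG-I, by -1.18 ± 0.17 (adjusted p = 0.0064). All 6 smoke arrays were below every control array for each of them, a gap present in 2.11% of genes.

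Of the brakes on the pathway, 1 of 13 was lower and 0 higher, with a median of 0.08. Usp18, an interferon-induced protein that blocks signalling at the interferon receptor, changed by -3.16 ± 0.19 (adjusted p = 1.14e-05). The phosphatase genes Ptpn11 and Ptpn6 had 0.19 ± 0.12 and -0.39 ± 0.26. A dimmer probe set of Ptpn11 had -0.40 ± 0.27 (limma, adjusted p = 0.632). A dimmer set of Ptpn6 had -1.64 ± 0.65 (limma, adjusted p = 0.428), and -1.08 without smoke arrays 1 and 2. Socs1, the suppressor induced by interferon, lay below the filter. Among cofactors and partners, 3 of 15 were lower and 0 higher, with a median of -0.16. Nlrc5, the transactivator of MHC class I genes, changed by -2.78 ± 0.26 (adjusted p = 0.000207), Nmi, which binds STAT proteins, by -1.58 ± 0.26 (adjusted p = 0.0137) and Ifi35, a binding partner of Nmi, by -1.02 ± 0.17 (adjusted p = 0.0192). Leaving out control array 1, 2 or 3 left 1 lower gene among the cofactors.

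The targets of the factors come last. Of 24 tested ISGF3 targets, 20 were lower and 0 higher, with a median log2 change of -2.30 against 0.06 over all genes. Ifit3 and Ifit1, which restrict viral RNA, had changes of -4.37 ± 0.32 and -4.34 ± 0.24, and Zbp1, a nucleic acid sensor of cell death, had -3.78 ± 0.44. The 4 targets that did not pass were Xaf1, Lgals3bp, Oas3 and Dhx58, named after their values were seen, and for Dhx58 another probe set was lower (-3.79 ± 0.48, adjusted p = 0.00225; -3.14 without smoke arrays 1 and 2). Of 20 tested targets of IRF1 and of GAS elements, 12 were lower and 0 higher, with a median of -2.01. Iigp1 and Irgm2, immunity-related GTPases, had -3.37 ± 0.21 and -2.82 ± 0.28, and Gbp3 and Gbp6, guanylate-binding proteins, had -3.08 ± 0.23 and -3.02 ± 0.27. Irf1 itself had a change of -0.37 ± 0.16 that did not pass. Some target sets were dim on smoke arrays. Zbp1 had a mean log2 level of 5.97 in smoke and 9.75 in control. The lower Dhx58 set had 4.36 and 4.16 on smoke arrays 1 and 2, against at least 9.07 on control arrays. Such sets may have met the filter through their control arrays, so the target counts are descriptions only. Without the filter, 20 ISGF3 targets and 10 targets of IRF1 and of GAS elements were lower.

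Of 19 tested STAT3 targets, 1 was lower and 0 higher, with a median of -0.21. At an unadjusted limma p under 0.05 there were 5 of the 19 genes, each lower in smoke. This call was met by 5.50% of all probe sets, and its share over genes was not computed. Osmr, the oncostatin M receptor chain, changed by -0.76 ± 0.13 (adjusted p = 0.0210), while its other tested probe set had -0.25 ± 0.24 (adjusted p = 0.755). The kinase gene Pim1 had -0.75 ± 0.20 (adjusted p = 0.210) and Fgl2 had -0.84 ± 0.24 (adjusted p = 0.251). Socs3, the feedback inhibitor of gp130 signalling, had 0.08 ± 0.35. The call of Osmr was lost, leaving 0 lower STAT3 targets, when any 1 of the 4 control arrays was left out.

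**Figure D5:**
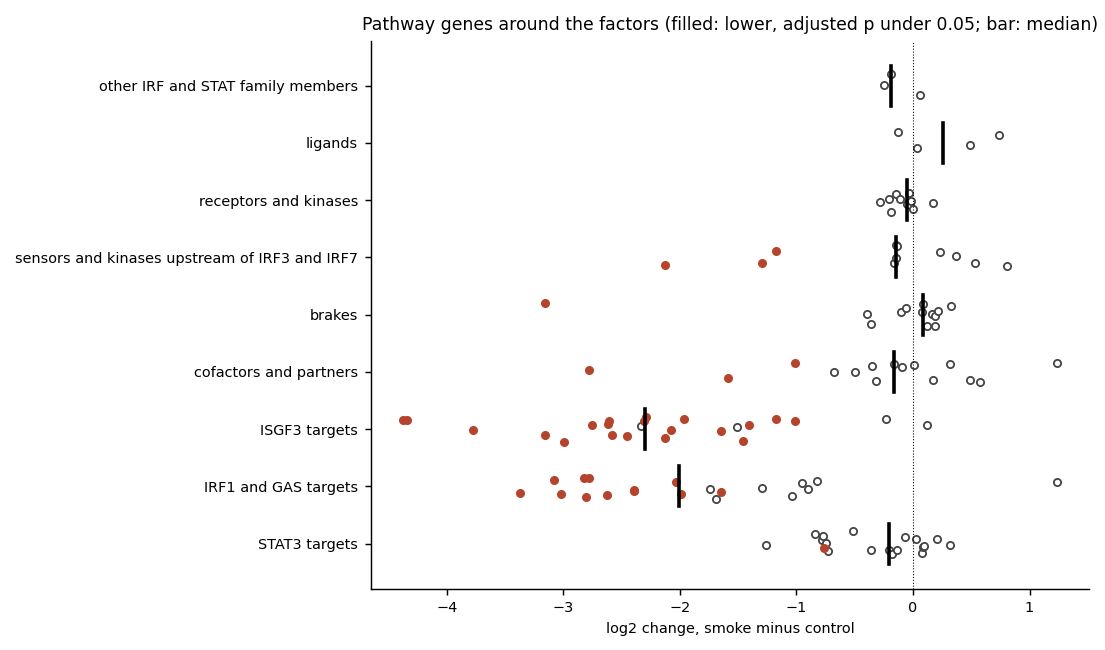
Log2 change, smoke minus control (horizontal axis), of each tested gene in 9 lists around the factors (rows); filled points are lower at an adjusted p under 0.05 and black bars are list medians. ISGF3 targets (median -2.30) and IRF1 and GAS targets (median -2.01) have medians well left of 0, with single genes to its right, while the medians of ligands (0.26), receptors and kinases (-0.05) and STAT3 targets (-0.21) are nearer to 0.

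Levels of cell types that use these factors were measured on the same arrays, and their part in the changes was not tested. Of 12 macrophage and monocyte markers, 1 was lower (Fcgr1, itself interferon-inducible, -1.22 ± 0.21, adjusted p = 0.0215). Averaged over the list, log2 intensity was 9.79 to 10.39 on smoke arrays against 10.31 to 10.85 on control arrays. Of 9 plasmacytoid dendritic cell markers, 1 was lower (Bst2, also on the ISGF3 target list), with list means of 8.70 to 9.19 on smoke arrays and 8.60 to 9.23 on control arrays. Conventional dendritic cell markers had 0 of 8 calls, at 8.84 to 9.52 on smoke arrays against 9.13 to 9.37 on control arrays. B cell markers had 0 of 10 calls, at 8.10 to 8.41 on smoke arrays against 7.50 to 7.84 on control arrays, which did not overlap. T and NK cell markers had 0 of 7 calls, at 6.82 to 8.08 on smoke arrays and 7.31 to 8.27 on control arrays. Neutrophil markers were lower for 4 of 9 (S100a9, S100a8, Stfa2l1 and Mmp8, at log2 changes of -2.0 to -1.39), with list means at 8.74 to 9.29 on smoke arrays against 9.89 to 9.98 on control arrays, which did not overlap. The other 5, Camp, Mmp9, Csf3r, Ltf and Ngp, had changes of -0.84 to 0.0012 and did not pass. How often the means of other gene lists part in this way was not tested. The gaps in B cell and neutrophil list means are therefore descriptions only. Marker lists of club and ciliated cells (6 genes), endothelium (7), fibroblasts and smooth muscle (7) and heart, fat and blood (5) had 0 calls.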

How the data were processed

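Total lung RNA was extracted with Trizol, amplified, labelled as cRNA and hybridised, per the labels' protocols. The values that the authors deposited are linear intensities, 1 for each probe set on each array. Which program summarised the probes is not given in the sources used here, and no detection calls were used. After trimming 2% of values at each end, the mean was 500.0 on all arrays.

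A single 0 was replaced by the smallest positive value. After log2 and quantile normalization, values below the 10th percentile (intensity 15.8, log2 3.98) were raised to it. Leaving out 64 Affymetrix controls from 45101 probe sets, the 60% with the highest mean level, 27022, were tested. The fit used limma 3.58.1 (lmFit, eBayes with trend) in R 4.3.3, two-sided, with Benjamini-Hochberg adjustment over all tested probe sets and a threshold of 0.05. A gene in a list was represented by its brightest tested probe set of 1 symbol (13382 genes). Gene symbols are those of the platform annotation; a RefSeq table changed 0 of the 9 member symbols. The fit was tested on simulated data. Plots used matplotlib 3.10.9 in Python 3.11.15.

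The members and lists were chosen with earlier results of these data known. Named were every member probe set, up to 4 genes per list and direction that passed with the largest change (otherwise the next by p, up to 3), and the 3 genes nearest to each called member. Predicted and clone names were not used. The design text's call rule names 9 pairwise comparisons, which these groups do not give, so 16 of 24 pairs were asked for. The conditions on the mean fold and the p-value given above were applied with it. Alternatives changed the normalization, the floor, the filter, array weights, the variance trend, the actin covariate, the replicate block, the arrays included, the probe set type and the call rule.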

Additional observations from a re-analysis of the deposited data

Results flagged for a closer look

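A sample far from the rest of its group was looked for in 36 groups, those of 18 probe sets in smoke and in control, by the gap to the nearest sample as a share of the group's range. Chance alone sets apart about 1 in 20 groups, and 5 values were set apart here. On smoke array 1, Irf3 1435271_at was lowest at 7.46 (next 8.17) and Irf3 1438721_a_at was lowest at 4.11 (next 5.37). On smoke array 4, Irf8 1416714_at was lowest at 8.93 (next 9.39). On control array 3, Irf3 1416898_a_at was lowest at 8.80 (next 9.20), and on control array 1, Stat3 1460700_at was lowest at 10.58 (next 11.07). None of these probe sets passed the adjusted test in any setting.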

How the results depend on the processing

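Irf7 and Irf9 were lower in all 23 alternatives, with adjusted p-values of 0.00266 to 0.0371 for Irf7 and 0.000894 to 0.0402 for Irf9. The fit to arrays 1 to 4 with no replicate block and the fit without smoke arrays 5 and 6 are the same. Both are counted among the alternatives. Stat2 1421911_at passed in 7 of 22, at -2.74 with the floor at the 25th percentile, -2.85 with array weights, -3.22 with the actin ratio as a covariate, -4.16 in both fits to arrays 1 to 4, -4.16 without smoke arrays 5 and 6 (the same arrays) and -3.72 without smoke array 5, and its adjusted p over single omissions was 0.0365 to 0.329. With no filter on dim probe sets, the limma adjusted p of this Stat2 set was 0.193. The set was bright enough for the filter through its control arrays, so its number of passes is a description only. No other tested member passed in any alternative. By the design text's rule 4 member sets were lower. Irf3 1416898_a_at, at 0.04, turned to -0.0059 with median centring and to -0.075 without smoke arrays 5 and 6, and ran from -0.060 to 0.10 over single omissions. Cofactors called lower numbered 1 with median centring and 1 to 3 over single omissions. STAT3 targets called lower numbered 0 with median centring or no variance trend, 2 with the actin covariate, 3 without smoke arrays 5 and 6, and 0 to 1 over single omissions. Brakes called higher numbered 1 without smoke arrays 5 and 6. Over all probe sets, 146 were lower and 3 higher, against 635 and 555 without smoke arrays 5 and 6, 439 and 200 with the actin covariate, and 86 to 155 lower over single omissions.

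Deviations of same-numbered arrays from their group means correlated at -0.068, 0.171, -0.060 and -0.050. Differently numbered arrays were not compared, so whether the replicate number paired the samples is not settled. With the replicate block on arrays 1 to 4, Stat2 1421911_at was at -4.16, Irf3 1416898_a_at at -0.075 (also without the block), and 710 probe sets were lower and 589 higher, against 635 and 555 without the block. With the block, 2 STAT3 targets were lower and 1 higher, and 1 sensor and 1 brake were higher; without it, 3 STAT3 targets were lower and 1 brake higher. The cause of these differences was not tested.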
